A study of Mus musculus with 14 samples.

Results

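Liver RNA of mice fed a high salt diet was compared with liver RNA of mice on a normal diet, gene by gene and grouped by function. The comparison uses 8 of the 14 libraries of the series, 4 per diet, chosen by the tissue and diet in their labels. All animals were males of 12 weeks that carried a human angiotensinogen transgene with the -6A promoter haplotype, so the control mice are transgenic too. The salt content of the diet, its duration, the background strain and the copy number of the transgene are not given in the sources used here. The study asked how high salt acts on the human angiotensinogen gene; the transgene itself was not analysed here. The normal diet libraries are called B1 to B4 after their titles. The high salt columns are numbered 5 to 8, which match no title, and are called HS5 to HS8. Nothing in the labels says that each library came from its own animal, so p-values measure the spread between these libraries, which may be technical in part.

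The liver turns dietary carbohydrate into fat through a short chain of enzymes. Pyruvate kinase closes glycolysis, citrate leaves the mitochondrion and is cut to acetyl-CoA by Acly, acetyl-CoA carboxylase and fatty acid synthase build palmitate, and elongases and the desaturase Scd1 modify it. The transcription factors SREBP1c and ChREBP switch these genes on together after feeding. The same hepatocytes secrete most plasma proteins, clear drugs and steroids through cytochromes P450 and conjugating enzymes, and make bile acids from cholesterol, and many of these functions are divided between the portal and the central end of the lobule.

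Levels are counts per 1000000 library counts (CPM) with library sizes scaled by the TMM method, and they were not divided by gene length, so they are compared between libraries and not between genes. Library totals ran from 37267778 to 51487382 counts. Hepatocyte markers were present at high levels in every library, their summed level running from 51774 to 86232 CPM on the normal diet and from 92237 to 110585 CPM on high salt, most of it Alb.

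Several libraries stood apart. B1 and B2 held 2.3% and 2.06% of their counts in transcripts of the mitochondrial genome, where the other 6 libraries held 11.3% to 29.6%, and the first principal component (43.5% of the variance) set them apart from the rest. B4 held far higher acute phase transcripts than the other normal diet libraries. HS5 and HS6 were closer to each other than any other pair of 1 diet: over 6698 genes with a mean of at least 10 CPM, their median absolute log2 ratio was 0.0572, against 0.118 for B1 and B2 and up to 0.479 in other pairs. If they came from 1 animal, the high salt group would hold 3 animals, so calls are also given with HS5 and HS6 summed to 1 library, and without B4.

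Markers of other cell types moved with the diet in some lists, and none of these markers passed the test with all libraries. All 6 erythroid markers were in the table, with summed levels of 725 to 1937 CPM on the normal diet and 271 to 720 CPM on high salt, which do not overlap. For pancreatic acinar cells 2 of 10 markers were in the table, at 37.6 to 50.7 CPM against 14.2 to 35.3 CPM. Nearly all of this was 1 gene, Cela1, at 36.6 to 48.9 CPM and 13.5 to 34.8 CPM, so the sum does not stand for acinar cells. Neutrophil markers (7 of 8 in the table) summed to 55.3 CPM in B4 and to 1.4 to 2.63 CPM in the other 7 libraries. Kidney tubule markers (5 of 6 in the table) summed to 45.6 CPM in HS7, of which Kap gave 37.4, to 14.3 CPM in HS8 and to at most 5.82 CPM elsewhere. In B1 and B2, 4 of these 5 markers were at 0. Markers of sinusoidal endothelium summed to 67.4 and 66.9 CPM in B1 and B2 and to 92.5 to 170 CPM in the others. The part of these cells in the results was not tested. In bulk RNA, fewer cells of a type and less RNA per cell cannot be told apart.

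Of 15130 genes tested, 152 were called at an adjusted p below 0.05 (1.00% of those tested), with 90 higher (0.595%) and 62 lower (0.410%) on high salt. The median log2 fold change was 1.48 among the genes called higher and -1.37 among those called lower, against -0.023 over all genes. Of all genes tested, 48% had a log2 fold change above 0. Of the called genes, 33 are members of 18 of the 28 lists written by function, 10 lists hold none, and 119 called genes are in no list. Without B4 there were 409 calls (2.68%), which included 148 of the 152. With HS5 and HS6 summed there were 12 calls (0.0779%), all among the 152. Both changes together gave 13 calls (0.0858%), of which 11 were among the 152. All 152 kept their direction and an unadjusted edgeR p below 0.05 under each of these changes. The median ratio of their fold change sizes (log2) to those with all libraries was 1.01 without B4 and 0.985 with the pair summed. The 152 were called on the same libraries that these fits reuse, so this was likely beforehand and is no independent support. DESeq2 called 1084 genes (6.72% of those it gave an adjusted p), which included all 152. Leaving out 1 library at a time gave 39 calls without B1, 41 without B2, and 765 without B3, and on the high salt side 12 (HS6 left out), 18 (HS5), 32 (HS8) and 120 (HS7). Acly, Capn8, Cyp7b1, Gm5182, Hcn3, Nnmt, Rhbg and Rnf145 passed in all 17 alternatives. Leaving out B1 and B2 together left 25 of the 152 among 52 calls (0.327%).

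**Figure D1:**
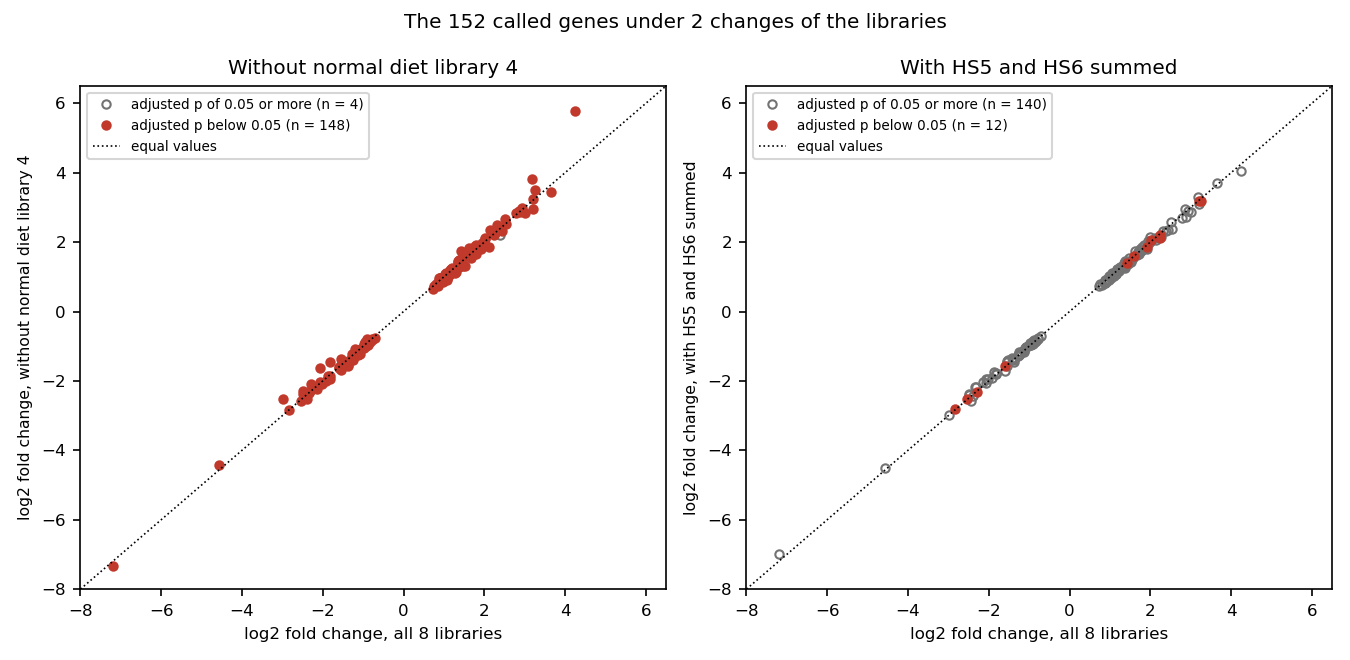
Log2 fold change of each of the 152 called genes with all 8 libraries (x axis) against the value without normal diet library 4 (left) or with HS5 and HS6 summed (right). Filled points have an adjusted p below 0.05 in the changed fit, 148 on the left and 12 on the right. All points keep their sign and most lie near the line of equal values. On the left Pnpla3 moved from 4.26 to 5.79.

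With all libraries, genes of fatty acid synthesis and desaturation had the most edgeR calls of the 28 lists. Of 18 genes tested, 7 rose and none fell, against 0.595% and 0.410% of all genes. Of the 18, 16 had a log2 fold change above 0, against 48% of all genes. The median was 1.26, against -0.023 over all genes. The 7 were Fasn, Scd1, Me1, Elovl6, Acly, Acaca and Elovl5. In 10 of the 18 every high salt library was above every normal diet library, against 6.44% of all genes. Without B4, 8 of the 18 rose (Acacb was added), against 1.30% of all genes in that fit, with a median of 1.17, while the cytochrome P450 and acute phase lists described below had 10 calls each, all lower. DESeq2 called 11 of the 18 genes and 12 of the endoplasmic reticulum list. With HS5 and HS6 summed, Acly, Fasn and Elovl5 still passed, against 0.0520% of all genes, and the median was 1.18.

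**Figure D2:**
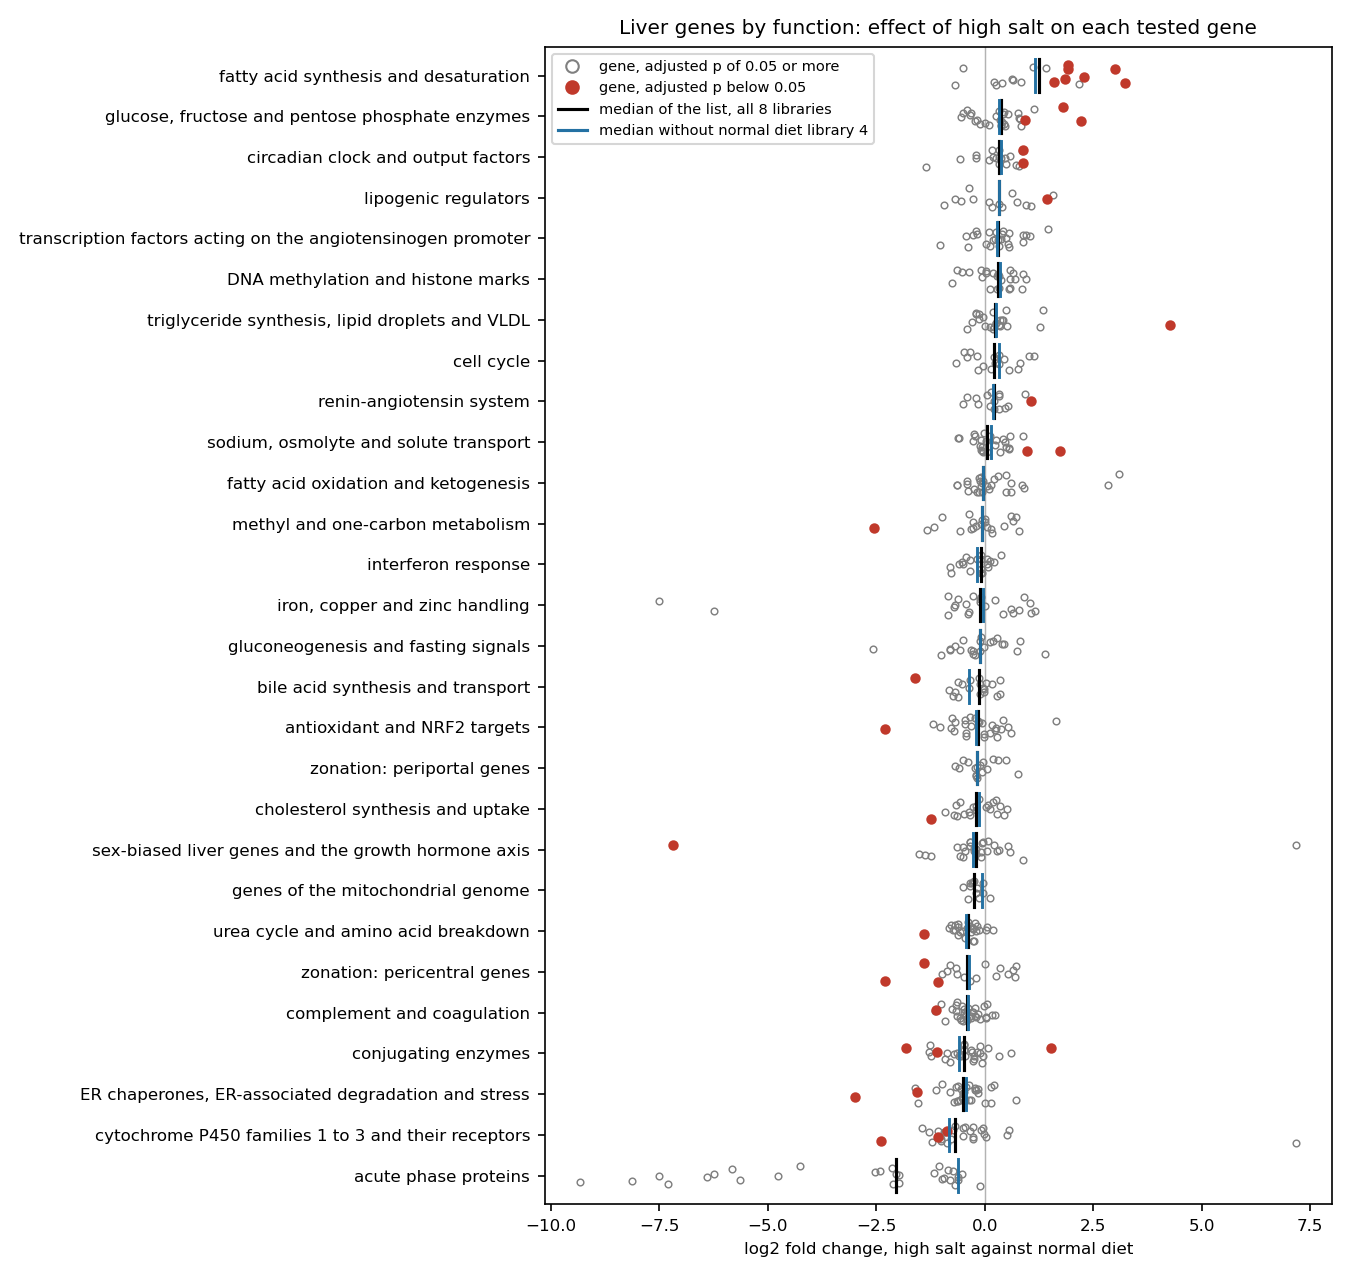
Log2 fold change (x axis) of every tested member of 28 gene lists (rows, sorted by median), with called genes filled, the median with all libraries in black and the median without normal diet library 4 in blue. Fatty acid synthesis has the highest median (1.26); the acute phase list has the lowest (-2.04), and its median without library 4 is -0.62.

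The proximal promoters of Fasn, Acly and Elovl5 are shown because these 3 members passed with all libraries, without B4 and with HS5 and HS6 summed. The sequences are RefSeq entries on GRCm38.p6, from 250 bases before to 50 bases after the annotated start, at chr11:120824498-120824797 on the minus strand (Fasn), chr11:100527951-100528250 on the minus strand (Acly) and chr9:77917115-77917414 on the plus strand (Elovl5). Capitals mark every match, on either strand, to 4 short motifs: the E-box CACGTG, the sterol regulatory element core CACNCCA, the CCAAT box CCAAT and the GC box GGGCGG.
Fasn: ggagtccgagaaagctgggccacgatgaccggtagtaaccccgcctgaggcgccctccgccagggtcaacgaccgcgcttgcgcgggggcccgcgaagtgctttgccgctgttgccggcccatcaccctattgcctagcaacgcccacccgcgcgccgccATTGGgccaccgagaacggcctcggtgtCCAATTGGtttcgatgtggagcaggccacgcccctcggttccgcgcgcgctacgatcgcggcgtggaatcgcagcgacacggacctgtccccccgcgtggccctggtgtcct
Acly: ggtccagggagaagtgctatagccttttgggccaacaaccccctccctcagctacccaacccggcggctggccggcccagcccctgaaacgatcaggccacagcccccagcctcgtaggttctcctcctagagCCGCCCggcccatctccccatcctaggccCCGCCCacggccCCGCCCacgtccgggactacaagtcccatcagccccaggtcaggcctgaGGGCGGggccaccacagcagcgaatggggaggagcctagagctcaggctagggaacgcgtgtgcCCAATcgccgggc
Elovl5: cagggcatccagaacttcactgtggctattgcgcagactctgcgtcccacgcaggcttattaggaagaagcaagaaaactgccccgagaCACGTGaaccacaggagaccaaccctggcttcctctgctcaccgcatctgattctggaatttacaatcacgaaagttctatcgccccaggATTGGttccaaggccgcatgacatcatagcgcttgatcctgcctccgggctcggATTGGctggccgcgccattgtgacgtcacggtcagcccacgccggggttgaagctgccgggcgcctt

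Promoter entries were found for 6 of the 7 genes. In Fasn 3 CCAAT matches lay 90, 62 and 59 bases before the start, the last 2 of them overlapping on opposite strands. Acly held 4 GC boxes before its start and 1 CCAAT match after it. Elovl5 held an E-box 161 bases before the start and 2 CCAAT matches. Among the 6 genes with an entry, an E-box was found in 1, a CCAAT box in 4, a GC box in 2 and the sterol core in none. Among all 32851 promoters of the same length, 7.15% held the E-box, 37.4% the CCAAT box, 35.7% the GC box and 18.4% the sterol core. These are matches of letters in a short window and do not locate binding.

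Acly, which makes cytosolic acetyl-CoA from citrate, stood at 87.8, 86.9, 105 and 87.1 CPM in B1 to B4 and at 398, 399.9, 245 and 344 CPM in HS5 to HS8. Every high salt library was above every normal diet library. Its level rose 3.78-fold (log2 fold change 1.92, SE 0.19, adjusted p = 0.00482), with adjusted p-values of 0.01 without B4 and 0.032 with HS5 and HS6 summed.

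Acaca, the cytosolic acetyl-CoA carboxylase that commits acetyl-CoA to fat, stood at 23.8, 28.4, 50.4 and 39 CPM on the normal diet and at 136, 133, 106 and 139 CPM on high salt. The diets did not overlap, and the log2 fold change was 1.86 (SE 0.24, adjusted p = 0.013). The call held without B4 (adjusted p = 0.0212) and was lost with the pair summed (0.0609). Its mitochondrial counterpart Acacb, whose product restrains fatty acid oxidation, went from 10.1, 13.7, 24.3 and 38.5 CPM to 126, 135, 50.6 and 81.9 CPM. It did not pass with all libraries (log2 fold change 2.18, adjusted p = 0.0563) and passed without B4 (2.61, adjusted p = 0.0317). B4 was the normal diet library with the most Acacb.

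Fasn, the synthase that makes palmitate, stood at 63.7, 67.5, 94.9 and 140.3 CPM in B1 to B4 and at 917, 1013, 390 and 1153 CPM in HS5 to HS8. HS7 was the lowest of the high salt libraries and still above every normal diet library. The log2 fold change was 3.24 with all libraries, 3.51 without B4 (adjusted p = 0.01) and 3.19 with HS5 and HS6 summed (adjusted p = 0.0446).

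Scd1, which places the double bond that turns stearate into oleate, stood at 1605, 2492, 2104 and 1269 CPM on the normal diet and at 19173, 18594, 7882 and 14464 CPM on high salt. The lowest high salt library, HS7, lay well above the highest normal diet library. The log2 fold change was 2.85 without B4 (adjusted p = 0.0206), and 2.88 with the pair summed, where it just missed the threshold (adjusted p = 0.0527).

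Among the elongases, Elovl5, which lengthens polyunsaturated fatty acids, stood at 95.3, 92.8, 84.4 and 91.4 CPM and then at 263, 269, 211 and 359 CPM, a 3.03-fold rise (log2 1.60, SE 0.18, adjusted p = 0.00857). It passed without B4 (adjusted p = 0.0149) and with the pair summed (0.0446). Elovl6, which lengthens palmitate, went from 50.7, 76.9, 75.9 and 48.3 CPM to 303, 291, 166 and 196 CPM (log2 fold change 1.93, adjusted p = 0.014). It passed without B4 (0.0263) and not with the pair summed (0.0638). Me1, the malic enzyme that supplies NADPH, rose 4.84-fold (log2 2.28, SE 0.32, adjusted p = 0.0169), from 37.3 to 98.7 CPM on the normal diet to 213 to 401 CPM on high salt. It passed without B4 (0.0317) and not with the pair summed (0.0741).

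In all 7 of these genes HS7 was the high salt library nearest to the normal diet. It was also the nearest in 55 of the 90 genes called higher and 30 of the 62 called lower. HS7 is the library with the most kidney tubule transcripts, and their part in this was not tested. The other members of the list did not pass. Thrsp, an early marker of lipogenesis, had overlapping diets (log2 fold change 0.65, adjusted p = 0.385). The desaturases Fads1 and Fads2 stood at 0.26 and 0.40, and the citrate carrier Slc25a1 at 0.22.

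**Figure D3:**
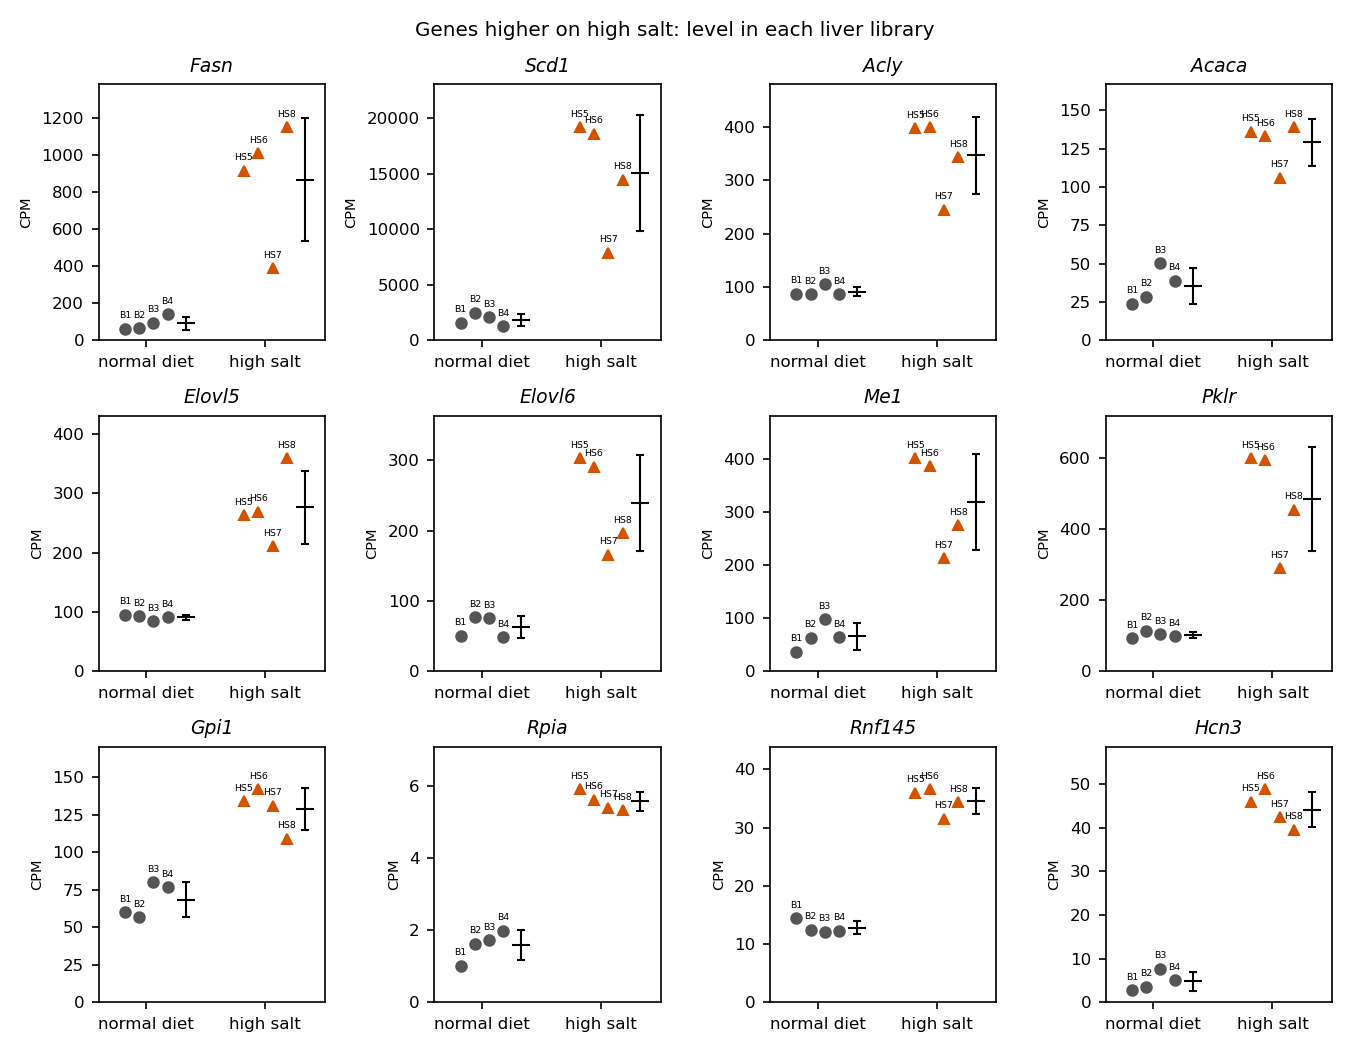
Level (CPM, linear axis from 0) of 12 called genes in each library, with normal diet as circles, high salt as triangles, and the mean with 1 SD (n = 4 per diet) beside them. The diets do not overlap in any panel, and HS7 is the lowest high salt library in the panels from Fasn to Pklr.

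Of 15 regulators of lipogenesis, 1 rose and none fell (median 0.32), against 0.595% and 0.410% of all genes. The gene that rose was Rnf145, a ubiquitin ligase of the endoplasmic reticulum that acts on the sterol sensor Scap. Rnf145 stood at 14.5, 12.5, 12.1 and 12.3 CPM on the normal diet and at 36, 36.6, 31.5 and 34.4 CPM on high salt, with little spread within a diet. It rose 2.69-fold (log2 1.43, SE 0.13, adjusted p = 0.0046) and passed without B4 (0.00929) and with the pair summed (0.031). The transcripts of the lipogenic transcription factors themselves did not pass. Srebf1 ran from 36.7 to 207 CPM and from 164 to 397 CPM, overlapping (log2 fold change 1.07, adjusted p = 0.253). Mlxipl, which encodes ChREBP, ran from 63.8 to 165 CPM and from 142 to 259 CPM (0.75, adjusted p = 0.263). In both genes B1 and B2 lay on one side of B3 and B4, below them for Mlxipl and above them for Srebf1. Mid1ip1, an activator of acetyl-CoA carboxylase, had diets that did not overlap and also did not pass (1.58, adjusted p = 0.0981).

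Of 22 genes of cholesterol synthesis and uptake none rose and 1 fell, against 0.595% and 0.410% of all genes. The list's median was -0.20 with all libraries and -0.14 without B4. The gene that fell was Msmo1, which removes methyl groups from the sterol ring. It stood at 348, 229, 197 and 206 CPM and then at 106, 107, 78.2 and 127 CPM (log2 fold change -1.23, SE 0.23, adjusted p = 0.044; 0.0375 without B4, 0.176 with the pair summed). Among 24 genes of triglyceride synthesis, lipid droplets and VLDL, 1 was called higher (median 0.23), against 0.595% of all genes. It was Pnpla3, a lipase of lipid droplets, at 0 to 0.168 CPM on the normal diet and 0.636 to 1.74 CPM on high salt (adjusted p = 0.0424; 0.0212 without B4, 0.145 with the pair summed). Gpam, which starts glycerolipid synthesis, did not pass, at 86.1 to 121 CPM against 128 to 339 CPM (1.35, adjusted p = 0.0649).

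Of 28 genes of fatty acid oxidation and ketogenesis none was called with all libraries, without B4 or with the pair summed, and 13 had a log2 fold change above 0 (median -0.048). Chosen after their values were seen, Cyp4a14 and Fgf21, both targets of the fasting regulator PPARα, had diets that did not overlap, with log2 fold changes of 2.83 and 3.09, and did not pass (adjusted p = 0.10 and 0.117).

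Enzymes that bring sugar carbon to these pathways rose in part. Of 29 genes of glucose, fructose and pentose phosphate metabolism, 3 rose and none fell, against 0.595% and 0.410% of all genes. The median was 0.38, against -0.023 over all genes. Without B4, 3 rose and none fell, against 1.30% and 1.38% of all genes, and the median was 0.33. With HS5 and HS6 summed 1 rose, against 0.0520% of all genes, and the median was 0.38. Pklr, the liver pyruvate kinase (chromosome 3, 89136142 to 89146784, plus strand), stood at 93.3, 114, 105 and 99.2 CPM on the normal diet and at 599, 593, 289.8 and 454 CPM on high salt. It rose 4.71-fold (log2 2.23, SE 0.24, adjusted p = 0.00618), and passed without B4 (0.0149) and with the pair summed (0.032). Rpia, which makes ribose 5-phosphate, stood at 1.02 to 1.99 CPM and 5.33 to 5.91 CPM (log2 fold change 1.80, adjusted p = 0.013), and Gpi1, glucose phosphate isomerase, at 56.7 to 80.2 CPM and 109 to 142 CPM (0.92, adjusted p = 0.0433). Both passed without B4 (0.0147 and 0.039) and neither with the pair summed (0.0638 and 0.174).

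Hcn3, a cation channel gene, lies beside Pklr on the opposite strand (chromosome 3, 89146074 to 89160196), and the 2 genes overlap by 711 bases. Hcn3 was counted at 2.73, 3.6, 7.71 and 5.12 CPM on the normal diet and at 45.9, 48.8, 42.4 and 39.5 CPM on high salt (log2 fold change 3.21, adjusted p = 0.0046), and passed without B4 (0.00929) and with the pair summed (0.031). Whether the counting used strand is not given in the sources used here, so the share of these reads that belongs to Pklr cannot be told from the table. HS7 was not the lowest of the high salt libraries for Hcn3, as it was for Pklr. Of the 152 called genes, 36 overlap another tested gene on the opposite strand. The share over all tested genes was not counted, so this number cannot be read as a trait of the called genes.

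Gluconeogenesis and fasting genes showed no call among 23 tested (median -0.12). Pck1, the entry enzyme of gluconeogenesis, stood at 1589 ± 424 and 1359 ± 179 CPM (SD, n = 4 each; log2 fold change -0.23, adjusted p = 0.617). Tat, which breaks down tyrosine, was at 692 to 1835 CPM on the normal diet and at 944 to 995 CPM in HS5, HS6 and HS8, with HS7 at 234 CPM (-0.81, adjusted p = 0.32). Without B4, Gpt, the alanine aminotransferase, fell by 0.89 on the log2 scale (adjusted p = 0.046).

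Nnmt fell furthest among the metabolic enzymes that passed in each of the 3 fits. It methylates nicotinamide and so consumes the methyl donor S-adenosylmethionine. It stood at 423, 465, 279 and 369 CPM on the normal diet and at 61.9, 61.8, 82.4 and 56.9 CPM on high salt. The diets lay far apart, a 5.84-fold difference, with adjusted p-values of 0.0046, 0.00929 without B4 and 0.031 with the pair summed. The other 21 tested genes of methyl and one-carbon metabolism did not pass with all libraries, and the list's median was -0.072. Of all genes, 0.410% were called lower. Without B4, Cth, which makes cysteine from cystathionine, fell by 1.43 on the log2 scale (adjusted p = 0.0406).

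Cyp7b1, the oxysterol hydroxylase of the alternative bile acid pathway (chromosome 3, 18071950 to 18243338, minus strand), was the member called lower among 20 genes of bile acid synthesis and transport. It stood at 483, 533, 441 and 444 CPM on the normal diet and at 148, 146, 189.7 and 144 CPM on high salt. It fell 3.03-fold (log2 -1.60, SE 0.17, adjusted p = 0.00517) and passed without B4 (0.00929) and with the pair summed (0.0446). None of the 20 rose, and the median was -0.13. Of all genes, 0.410% were called lower and 0.595% higher. Without B4 the steroid reductase Akr1d1 (-0.94, adjusted p = 0.04) and the organic anion carrier Slco1a4 (-1.03, adjusted p = 0.0333) also fell; B4 held the least of both among the normal diet libraries, at 34.3 and 10.6 CPM.

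Of 29 tested genes of cytochrome P450 families 1 to 3 and their receptors, 3 fell, against 0.410% of all genes, and none rose. Of the 29, 25 had a log2 fold change below 0, where 48% of all genes lay above 0, and the median was -0.69. Without B4, 10 fell and none rose, against 1.38% of all genes lower in that fit, and the median was -0.83. With the pair summed none was called, where 0.0260% of all genes were lower, and the median was -0.52. With B1 and B2 left out the median was -0.34.

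Cyp1a2, which oxidises caffeine and arylamines, stood at 797, 859.5, 699 and 517 CPM and then at 303, 322, 397 and 345 CPM. It fell 2.10-fold (adjusted p = 0.045; 0.0212 without B4, 0.201 with the pair summed). Cyp2b10, the classic target of the receptor CAR, stood at 8.42, 22, 14.8 and 9.9 CPM and then at 2.98, 2.9, 3.49 and 1.2 CPM (log2 fold change -2.38, adjusted p = 0.0321; 0.0317 and 0.138). Cyp3a13 fell from 149 to 169 CPM to 65.8 to 98.7 CPM (log2 fold change -0.86, adjusted p = 0.0481; 0.0443 and 0.178). The diets did not overlap in any of the 3.

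Cyp2a5, Cyp2a12, Cyp2c29, Cyp2c50, Cyp2c54, Cyp2c70 and Cyp3a11 passed without B4 but neither with all libraries nor with the pair summed, and B4 held the least of each among the normal diet libraries. Cyp3a11, the main steroid and drug hydroxylase of mouse liver, shows the pattern. It stood at 7796, 11691 and 7307 CPM in B1 to B3, at 378 CPM in B4, and at 2741, 2666, 3978 and 2295 CPM on high salt. The log2 fold change was -1.22 with B4 (adjusted p = 0.352) and -1.62 without it (adjusted p = 0.0364). Genes of these families are close paralogs, and the counting may have divided their reads unevenly.

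Of 31 conjugating enzymes tested, 2 fell and 1 rose (median -0.47), against 0.410% and 0.595% of all genes. Without B4, 6 fell and 1 rose (median -0.59), against 1.38% and 1.30% of all genes. With the pair summed none was called (median -0.41), and the median was 0.041 with B1 and B2 left out. Sult5a1, a sulfotransferase, stood at 35.2, 17.4, 31.7 and 19.7 CPM and then at 7.72, 6.47, 8.52 and 6.84 CPM (log2 fold change -1.82, SE 0.24, adjusted p = 0.014; 0.0149 without B4, 0.0741 with the pair summed). Gstm2, a glutathione transferase, fell 2.12-fold (adjusted p = 0.0493; 0.0449 and 0.20). Ugt1a5, a glucuronosyltransferase that shares exons with its neighbours in the Ugt1a cluster, rose from 16.9 to 39.3 CPM to 65.8 to 98.2 CPM (log2 fold change 1.52, adjusted p = 0.0321; 0.0212 and 0.138).

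Among 18 pericentral genes, those of the zone round the central vein, 3 fell, against 0.410% of all genes, and none rose (median -0.40). Without B4, 4 fell, against 1.38% of all genes (median -0.36). The added gene was Gulo, an oxidase of ascorbate synthesis (log2 fold change -0.70, adjusted p = 0.0447). With the pair summed 1 fell, against 0.0260% of all genes (median -0.39). Rhbg, an ammonium transporter of the hepatocytes that also make glutamine (chromosome 3, 88242874 to 88254709, minus strand), stood at 13, 9.29, 9.94 and 17.7 CPM on the normal diet and at 2.24, 3, 2.68 and 2.24 CPM on high salt. It fell 4.91-fold (log2 -2.30, SE 0.24, adjusted p = 0.00517) and passed without B4 (0.00929) and with the pair summed (0.032). Oat, the ornithine aminotransferase of the same cells, stood at 1174, 791, 489 and 709 CPM and then at 282, 280.3, 262 and 369 CPM (log2 fold change -1.41, adjusted p = 0.0451; 0.0405 without B4, 0.187 with the pair summed). Cyp1a2 was the third. Glul, the glutamine synthetase that defines this zone, did not differ beyond its spread, with overlapping diets at 451 to 734 CPM and 429 to 627 CPM (log2 fold change -0.0010, adjusted p = 0.999). None of 17 periportal genes was called (median -0.17). Alb, placed in that list, stood at 32441 to 50637 CPM and at 67824 to 85226 CPM, which do not overlap, and did not pass (0.76, adjusted p = 0.19).

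Genes of the urea cycle and amino acid breakdown lay below 0 in 24 of 27 cases (median -0.39), where 48% of all genes lay above 0. Oat was the one called, where 0.410% of all genes were called lower. Without B4, the ornithine carrier Slc25a15 (-0.70, adjusted p = 0.045) and Kmo of tryptophan breakdown (-0.70, adjusted p = 0.0412) fell as well. The median was -0.036 with B1 and B2 left out.

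**Figure D4:**
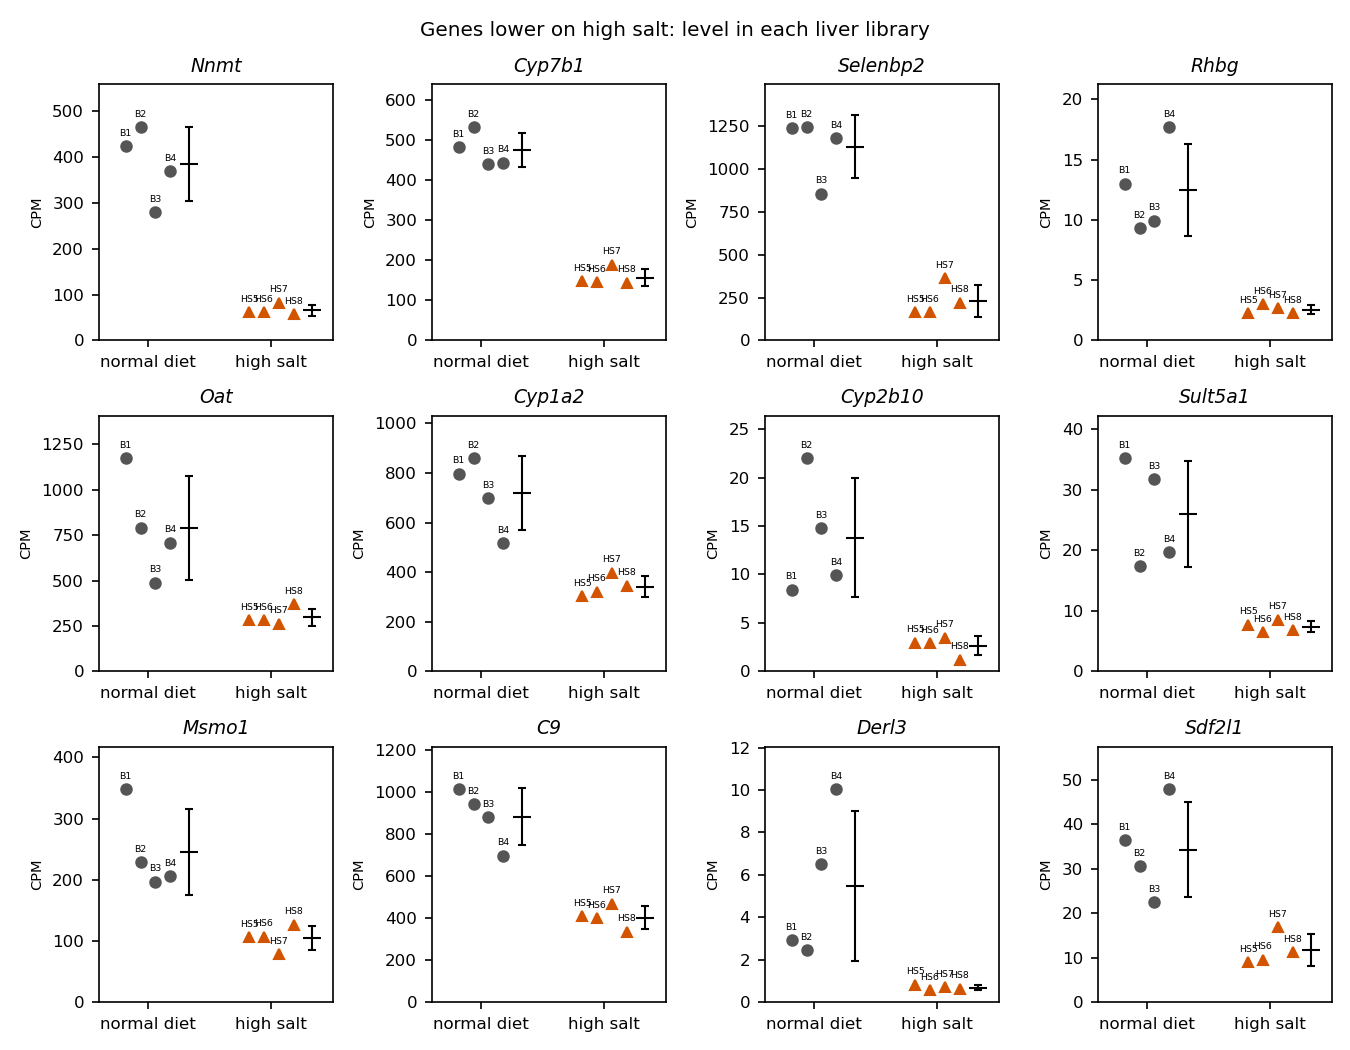
Level (CPM, linear axis from 0) of 12 genes called lower on high salt in each library, with normal diet as circles, high salt as triangles, and the mean with 1 SD (n = 4 per diet) beside them. The diets do not overlap in any panel; Nnmt, Cyp7b1 and Rhbg are the 3 shown that also passed with HS5 and HS6 summed.

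Acute phase genes, which the liver induces in inflammation, took their fold changes largely from B4. Of 29 genes tested none was called with all libraries, all 29 had a log2 fold change below 0, and the median was -2.04. B4 was the highest normal diet library in 27 of the 29, and over 2-fold above each of the others in 24. Without B4 the median was -0.62, 10 genes fell, against 1.38% of all genes in that fit, and none rose. High salt lay below each of B1, B2 and B3 in 15 of the 29, against 10.2% of all genes. With the pair summed none was called.

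Orm2, an orosomucoid, stood at 34.6, 46.8 and 25.3 CPM in B1 to B3, at 1547 CPM in B4 and at 4.76, 3.77, 7.32 and 3.55 CPM on high salt. Its log2 fold change was -6.41 with B4 (adjusted p = 0.0722) and -2.88 without it (adjusted p = 0.00929). Hpx, which binds free heme, stood at 7491, 7536 and 4351 CPM in B1 to B3, at 22104 CPM in B4 and at 2388, 2422, 3222 and 2469 CPM on high salt (-1.98, adjusted p = 0.0768 with B4; -1.31, adjusted p = 0.0423 without). Mt1, a metallothionein, went from 13.1 to 26.6 CPM in B1 to B3 to 2.7 to 4.25 CPM on high salt, with B4 at 1037 CPM, and passed without B4 (-2.47, adjusted p = 0.00929). Crp, Saa1, Saa4, Orm1, Orm3, Lcn2 and Tfrc were the others called without B4. Tfrc, the transferrin receptor, stood at 26.5 to 30.4 CPM in B1 to B3, at 13.3 CPM in B4 and at 13.2 to 14.4 CPM on high salt, so in this gene B4 lay with the high salt libraries. B4 is also the library with the neutrophil transcripts given above, and their part in these values was not tested. Reads of the Saa and Orm families may be split between near-identical copies.

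**Figure D5:**
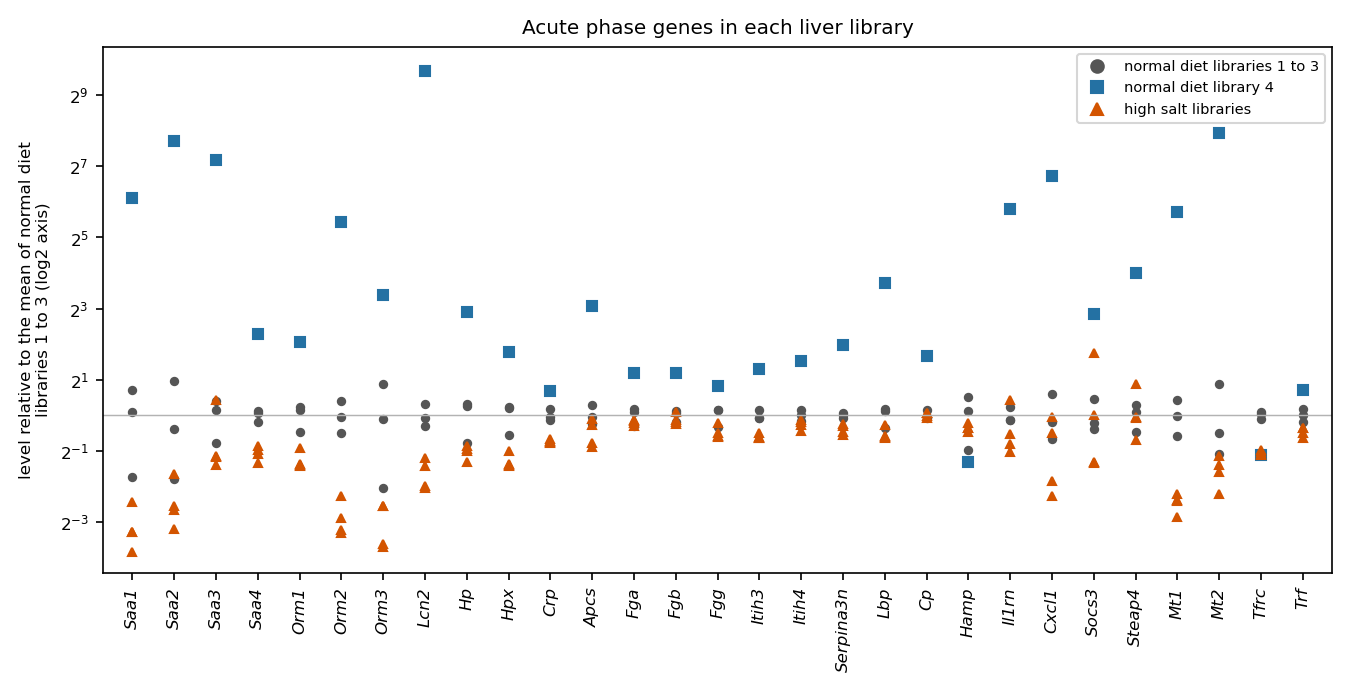
Level of 29 acute phase genes in each library relative to the mean of normal diet libraries 1 to 3 (log2 axis), with those libraries as circles, library 4 as squares and high salt libraries as triangles. Library 4 is above the other 3 normal diet libraries in 27 genes, and the high salt libraries lie below all 3 in 15, against 10.2% of all genes tested.

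Complement and coagulation genes lay below 0 in 32 of 37 cases (median -0.42, -0.38 without B4, -0.29 with B1 and B2 left out), with 1 called lower. Of all genes, 48% lay above 0 and 0.410% were called lower. C9, the pore-forming last component of complement, stood at 1015, 943, 881 and 698 CPM and then at 411, 399.6, 470.3 and 336 CPM (log2 fold change -1.13, SE 0.19, adjusted p = 0.0386; 0.0212 without B4, 0.164 with the pair summed). Without B4, C8b, F11 and Serpind1 fell as well.

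Chaperones and degradation factors of the endoplasmic reticulum, where secreted proteins fold, lay below 0 in 29 of 33 cases (median -0.49; -0.43 without B4; -0.48 with the pair summed; -0.52 with B1 and B2 left out). Of the 33, 2 fell with all libraries, 3 without B4 and none with the pair summed, and none rose in these fits. Of all genes, 48% lay above 0 with all libraries, and 0.410%, 1.38% and 0.0260% fell in these fits. Diets did not overlap in 15 of the 33, all lower, against 6.05% of all genes. Derl3, a channel component of ER-associated degradation, stood at 2.92, 2.45, 6.51 and 10.04 CPM and then at 0.834, 0.58, 0.707 and 0.654 CPM (log2 fold change -2.98, adjusted p = 0.026; 0.025 without B4, 0.106 with the pair summed). Sdf2l1, a cofactor of the chaperone BiP, fell 2.95-fold (adjusted p = 0.0408; 0.04 and 0.161). Hspa5, which encodes BiP, ran from 712 to 966 CPM and from 435 to 530.2 CPM and did not pass (-0.79, adjusted p = 0.0683; 0.0501 without B4). Creld2 passed without B4 (-1.09, adjusted p = 0.0407).

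Major urinary proteins, pheromone carriers that male liver secretes in large amounts, lay lower in 20 of 21 genes, where 48% of all genes lay above 0. Of the 21, 5 were called lower (Mup17, Mup18, Mup14, Mup13 and Mup8), against 0.410% of all genes. All 5 passed without B4, at adjusted p-values of 0.0147 to 0.0474, and none passed with the pair summed, at 0.105 to 0.211. These copies are near-identical, so their sum was also taken. It was 93665, 108576, 93189 and 70802 CPM in B1 to B4 and 43225, 42966, 78107 and 42281 CPM in HS5 to HS8. HS7 overlapped the normal diet and the other 3 did not. Some members of the sum differed widely within a diet. Mup9 stood at 11554, 12447, 182 and 75.4 CPM in B1 to B4. In HS5 to HS8 it stood at 4447, 3983, 6437 and 49 CPM. Mup1 and Mup2 were likewise far lower in B3, B4 and HS8 than in the other libraries. The part of these genes in the overlap of HS7 was not tested. Of the 29 tested genes of sex-biased expression and the growth hormone axis, 1 was called, lower, against 0.410% of all genes. It was Moxd1, a monooxygenase-like gene, at 45.2, 14.2, 0.283 and 13 CPM on the normal diet and at most 0.371 CPM on high salt. B3 overlapped high salt, the 1 case of overlap among the 152 called genes. Its adjusted p was 0.047, 0.0424 without B4 and 0.181 with the pair summed. Without B4, Mup7, Mup11 and Ugt2b1 of this list also fell (adjusted p = 0.0408, 0.0443 and 0.0222). That made 4 of the 29, against 1.38% of all genes lower in that fit.

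Of 20 circadian clock and output genes 2 rose (median 0.33), against 0.595% of all genes. Hlf, a clock output factor, stood at 24, 21.7, 25.8 and 21.8 CPM and then at 48.7, 47.5, 35.5 and 40.5 CPM (log2 fold change 0.88, adjusted p = 0.0364; 0.0405 without B4, 0.16 with the pair summed). Per3, a period gene, rose 1.84-fold (adjusted p = 0.044; 0.0408 and 0.161). Nfil3, a repressor that competes with Hlf for its sites, ran from 12.5 to 34.7 CPM and from 7.84 to 9.17 CPM, and passed without B4 alone (-1.05, adjusted p = 0.0436). The time of day of collection is not given in the sources used here.

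Of 16 genes of the renin-angiotensin system 1 rose, against 0.595% of all genes. Enpep, the aminopeptidase that turns angiotensin II into angiotensin III, stood at 36, 35.9, 39 and 22.1 CPM and then at 75.8, 70.6, 69.7 and 62.1 CPM (log2 fold change 1.06, SE 0.19, adjusted p = 0.0424; 0.0263 without B4, 0.161 with the pair summed). Mouse Agt, the gene of angiotensinogen, stood at 411, 354, 348 and 485 CPM on the normal diet and at 276, 317, 318 and 293 CPM on high salt. The diets did not overlap, and the log2 fold change of -0.41 (-0.31 without B4, -0.40 with the pair summed) did not pass in any of the 3 fits (adjusted p = 0.207, 0.193 and 0.411). Of 26 factors known to bind the angiotensinogen promoter none was called with all libraries (median 0.31) or with the pair summed (0.35), and the median without B4 was 0.28. Hnf4a had overlapping diets (0.033).

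Of 27 genes of sodium, osmolyte and solute transport 2 rose, against 0.595% of all genes. The list's median was 0.058, against -0.023 over all genes. Aqp8, a water channel of hepatocytes, stood at 41, 33.1, 22.4 and 25.1 CPM and then at 84.6, 87.4, 61.2 and 173 CPM (log2 fold change 1.74, adjusted p = 0.0449). It was lost without B4 (0.0519) and with the pair summed (0.145). Slc6a6, the taurine carrier, rose 1.98-fold (adjusted p = 0.0482; 0.0444 without B4, 0.191 with the pair summed).

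Selenbp2, a selenium-binding protein gene with a near-identical paralog, was the member called among 29 antioxidant genes, against 0.410% of all genes called lower. It stood at 1238, 1243, 855 and 1179 CPM and then at 163, 166, 362 and 219 CPM, and fell 4.96-fold (adjusted p = 0.013; 0.0212 without B4, 0.0638 with the pair summed). No gene was called among DNA methylation and histone mark genes (25 tested, median 0.31), iron, copper and zinc genes (24, median -0.11), genes of the mitochondrial genome (13, median -0.24), cell cycle genes (18, median 0.22) or interferon response genes (20, median -0.089). Of the mitochondrial genes, mt-Co1 ran from 7403 to 161661 CPM within the normal diet and mt-Cytb from 2980 to 51266 CPM. Without B4, 2 of the 24 metal genes rose and 2 fell, and the other 4 of these lists still had no call.

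Capn8, Lpar2 and Gm5182, outside the lists, also passed in all 3 fits. Capn8, a calpain protease, stood at 10.9, 10.7, 4.81 and 9.23 CPM and then at 1.05, 1.24, 1.41 and 1.29 CPM, a 7.13-fold fall (adjusted p = 0.0046; 0.00929 without B4, 0.032 with the pair summed). Lpar2, a receptor for lysophosphatidic acid, stood at 0.571, 0.708, 0.598 and 0.793 CPM and then at 2.36, 2.53, 2.87 and 3.07 CPM (log2 fold change 2.01, adjusted p = 0.00857; 0.0136 and 0.0446). The predicted gene Gm5182 stood at 8.42 to 14.7 CPM and 41.3 to 64.8 CPM (log2 fold change 2.25, adjusted p = 0.0046; 0.00929 and 0.031).

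Among the 10 highest called genes that held without B4 and had at least 50 counts on average, 4 with a known product lay outside the lists: Pltp, Cyp46a1, Chrna4 and Hcn3. Pltp, which moves phospholipids between lipoproteins, stood at 7.49, 6.81, 5.76 and 7.76 CPM and then at 53, 58.7, 19.3 and 80.7 CPM (log2 fold change 2.93, adjusted p = 0.013; 0.0254 without B4, 0.0527 with the pair summed). Cyp46a1, which makes 24-hydroxycholesterol, stood at 0.30 to 1.1 CPM and 3 to 5.47 CPM (2.86, adjusted p = 0.0176; 0.0317 and 0.0609). Chrna4, a nicotinic receptor subunit, stood at 0.476 to 2.98 CPM and at 8.83 to 10.9 CPM with HS8 at 23.1 CPM (3.17, adjusted p = 0.0433; 0.0212 and 0.128). The predicted genes Gm42427, Gm7049 and Gm7329 had log2 fold changes of 3.65, 2.54 and 2.43. They passed with all libraries (adjusted p = 0.0433, 0.013 and 0.026) and without B4 (0.0496, 0.0263 and 0.0369), and not with the pair summed (0.138, 0.0527 and 0.102). Among the lowest, Nucb2, the precursor of nesfatin, fell 4.20-fold (adjusted p = 0.0433; 0.0338 and 0.166), and the predicted gene Gm14097 fell 3.80-fold (adjusted p = 0.0433; 0.0406 and 0.173).

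Further genes called outside the lists were chosen after their values were seen. Dio1, the deiodinase that activates thyroid hormone, stood at 205, 215, 229 and 211 CPM and then at 89.8, 87.4, 58.7 and 49.3 CPM (log2 fold change -1.59, SE 0.21, adjusted p = 0.014; 0.0212 without B4, 0.0527 with the pair summed). Acmsd and Aadat, enzymes of tryptophan breakdown, fell by 1.38 and 1.12 on the log2 scale (adjusted p = 0.0297 and 0.047), and both held without B4 (0.0147 and 0.0278) and not with the pair summed. Tkfc, the kinase that brings glyceraldehyde from fructose into glycolysis, rose from 141 to 190 CPM to 273 to 437 CPM (1.15, adjusted p = 0.0364; 0.0351 and 0.151). Slc2a4, the insulin-regulated glucose transporter of muscle and fat, stood at 0.0629 to 0.354 CPM and at 0.665 to 2.03 CPM (3.21, adjusted p = 0.0408; 0.0414 and 0.145).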

How the data were processed

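Liver RNA of 4 normal diet and 4 high salt libraries was converted from total RNA with the SMARTer mRNA-Seq kit and sequenced, per the labels' protocols. The authors deposited expected counts per gene in 1 table. The submitters' processing notes name Partek 7.0, STAR 2.5.3a, DESeq2 and the build mm10. Of the values 58.2% were whole. Rounded expected counts went into the quasi-likelihood test of edgeR 4.0.16 in R 4.3.3, with TMM scaling and diet as the only term. The filterByExpr step by diet kept 15130 of 19660 genes. Genes with a Benjamini-Hochberg adjusted p below 0.05 were called. All adjusted p-values are edgeR's unless another tool is named.

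Columns were matched to samples by name; high salt columns show the diet alone. The unused normalized liver and kidney tables hold 20 per-sample columns, and kidney libraries and the human transgene were not analysed here. Some genes that the naming rules take are not reported here. The members, the 28 lists and the tests were chosen with earlier results of these data known. Genes were named by 5 rules: those called with all libraries, without B4 and with HS5 and HS6 summed; the 10 highest and 10 lowest called with and without B4, averaging 50 counts, whose diets did not overlap; up to 4 called members per list; the 2 most abundant members of lists with no call; and Agt. Any other gene named was chosen after its values were seen, among them Acaca, Acacb, Srebf1, Mlxipl, Glul, Cyp3a11, Orm2, Mt1 and Hspa5. Ends in the table lie 1 base past the gene and were moved back. With that change 99.5% of starts and 99.3% of ends equal GENCODE M21 for the 98.2% of tested genes named there.

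As alternatives the comparison was run with DESeq2 1.42.0, with upper quartile and RLE scaling, with 2 other filters, each library left out, HS5 and HS6 summed (alone and without B4), B1 and B2 left out, and mitochondrial genes left out. The fit was tested on simulated counts for this comparison over 14918 genes. It recovered 164 of the 200 given a log2 change of 2, with 5 false calls. The simulated libraries were drawn independently, without the likeness of HS5 and HS6 or the libraries that stood apart. The simulation therefore does not measure the rate of false calls in the real libraries. The biological coefficient of variation was 0.314, so replicate spread rather than counting error limits most genes.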

Additional observations from a re-analysis of the deposited data

Results flagged for a closer look

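In 132 groups of 4 libraries (the 66 named genes in each diet), the highest or lowest library was checked for a gap to the rest that takes most of the group's range. There were 14 such groups, where chance gives about 1 in 20, or 6.6, for independent libraries. HS5 and HS6 are closely alike, and many of the named genes were chosen by their values in these libraries. The difference between 14 and 6.6 can therefore not be read as a result. HS7 accounted for 7 of the 14 groups, 5 high and 2 low. In HS7, Cyp7b1 stood at 189.7 CPM (144 to 148 in the other high salt libraries), Hpx at 3222 CPM (2388 to 2469), mt-Co1 at 81692 CPM (40447 to 46418), mt-Cytb at 28686 CPM (14309 to 16618) and Bst2 at 111 CPM (82.2 to 84.9). HS7 was low for Pck1, at 1092 CPM (1419 to 1468), and for Tat, at 234 CPM (944 to 995).

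HS8 stood at 23.1 CPM of Chrna4 (8.83 to 10.9) and at 65.8 CPM of Cyp3a13 (93.3 to 98.7). Among the normal diet libraries, B3 stood at 105 CPM of Acly (86.9 to 87.8), at 2.45 CPM of Gm7329 (0.845 to 1.01) and at 855 CPM of Selenbp2 (1179 to 1243). B1 stood at 14.5 CPM of Rnf145 (12.1 to 12.5), and B2 at 17.4 CPM of Pcna (13.3 to 13.5).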

How the results depend on the processing

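The number of called genes moved with the libraries used more than with the scaling. DESeq2 called 1084 genes (525 higher, 559 lower), which included all 152. With HS5 and HS6 summed there were 12 (8 higher, 4 lower), with B4 left out as well 13 (7 and 6), and with B1 and B2 left out 52 (22 and 30). Fits that each left out 1 library called from 12 genes (without HS6) to 765 (without B3), from 8 to 372 higher and from 4 to 393 lower. Each such fit had fewer libraries than the main fit. Those without B3 (765) or B4 (409) called more genes than the 152, and the others called fewer. The cause was not tested. RLE scaling (155), upper quartile scaling (148), a minimum of 10 counts in each library (135), no filter (116) and mitochondrial genes left out (149) stayed within 1.5 times the 152. Of the 46 named called genes none reversed in any alternative that tested it, but they were called on libraries that the alternatives reuse. Of these, 45 passed when B4 was left out, 12 when HS5 and HS6 were summed, and 9 under both. At an unadjusted p below 0.05, edgeR found 3205 genes with all libraries, 4356 without B4 and 2054 with the pair summed. No paired analysis was possible because the high salt columns carry numbers that match no title and no number of the normal diet libraries.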

Other observations

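Cyp2a4, a steroid 15-hydroxylase of female mouse liver, stood at 254 CPM in HS8 and at 0.249 to 1.29 CPM in the other 7 libraries, all labelled male (log2 fold change 7.18, edgeR adjusted p = 0.133). It was singled out after its values were seen. Lpin1, a phosphatidate phosphatase of glycerolipid synthesis and also singled out, varied widely within each diet, at 29.3, 78.7, 451 and 361 CPM on the normal diet and at 375, 378, 333 and 87.9 CPM on high salt.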
